A study of Rattus rattus with 8 samples.

Results

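The genes described here encode the glycosyltransferases and carbohydrate sulfotransferases that build mucin-type O-glycans and the outer parts of other glycans. They were taken by gene name, as the polypeptide GalNAc transferases (Galnt), core 1 galactosyltransferase and its chaperone (C1galt1), the Gcnt, B3gnt, B3galt and B4galt families, the sialyltransferases (St3gal, St6gal, St6galnac and St8sia), the numbered Fut genes and the Chst sulfotransferases. Of 11762 genes listed in the deposited table, 51 matched by name, and 47 of these reached 1 FPKM (fragments per kilobase of transcript, scaled to library size) in at least 4 of 8 libraries. The rule itself used names and a level limit and no measured difference between the strains. It was set, however, with earlier results of these data known. All 47 reached 1 FPKM in libraries of both strains, and 45 did so in all 8 libraries.

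The libraries were made from epithelium shaken off the proximal colon, 4 from SHR (the spontaneously hypertensive rat, an inbred strain whose blood pressure rises with age) and 4 from WKY (Wistar-Kyoto, the related strain commonly used as its normotensive control). No treatment, age or sex is given in the labels, and the 2 strains differ at many places in the genome. The labels number the libraries 1 to 4 within a strain without saying whether each came from its own animal, so the p-values reflect library-to-library spread, which may be technical. SHR libraries summed to 882295 to 986819 FPKM and WKY libraries to 955654 to 1066833 FPKM, and how many reads stand behind a value is not known.

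Mucin-type O-glycosylation begins when a polypeptide GalNAc transferase puts N-acetylgalactosamine on a serine or threonine. That sugar is then extended into core structures, lengthened by N-acetylglucosamine and galactose, and finished with sialic acid, fucose or sulfate. In the colon these chains make up much of the mass of the secreted and surface mucins of the epithelium, and they are food and binding sites for gut bacteria. Some of the same enzymes, and others of the families taken here, work on N-glycans, glycolipids or proteoglycans.

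In SHR epithelium 7 of the 47 genes were lower and 2 were higher than in WKY epithelium, judged by limma on log2(FPKM + 1) at a Benjamini-Hochberg threshold of 0.05 over all 11069 tested genes. The genes that fell act at several steps: the initiating enzymes Galnt1 and Galnt5, the core 2 enzyme Gcnt1, the chain extender B3gnt3, the sialyltransferase St6galnac2, and the sulfotransferases Chst4 and Chst9. The genes that rose were the fucosyltransferase Fut4 and the sialyltransferase St3gal4. The 7 lower genes are 14.9% of the members, beside 7.48% of all tested genes called lower, and the 2 higher genes are 4.26%, beside 3.40% of all tested genes called higher. The median log2 fold change of the members was -0.04, beside -0.07 over all tested genes, and 25 of 47 members (53.2%) had a negative value, beside 60.9% of all tested genes. Most of the 47 genes thus gave no call in either direction. At an unadjusted limma p under 0.05, 9 members were lower and 9 higher, beside 2040 lower and 997 higher of all 11069 tested genes. The unadjusted counts given below for each step are to be read beside that background.

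The number of higher calls moved with the scaling. With quantile normalization 6 members were higher and 6 lower, and with each library centred on its median gene 5 were higher and 7 lower, while over all tested genes the split was 642 higher and 644 lower, or 541 and 714, in place of 376 and 828. By the q-values of the authors' deposited table, at the same threshold of 0.05, 6 of the 47 were higher and 7 lower in SHR, with 5.74% and 9.59% of all 11762 listed genes called higher and lower there. All 7 lower members were the same in that table as in the limma fit.

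**Figure D1:**
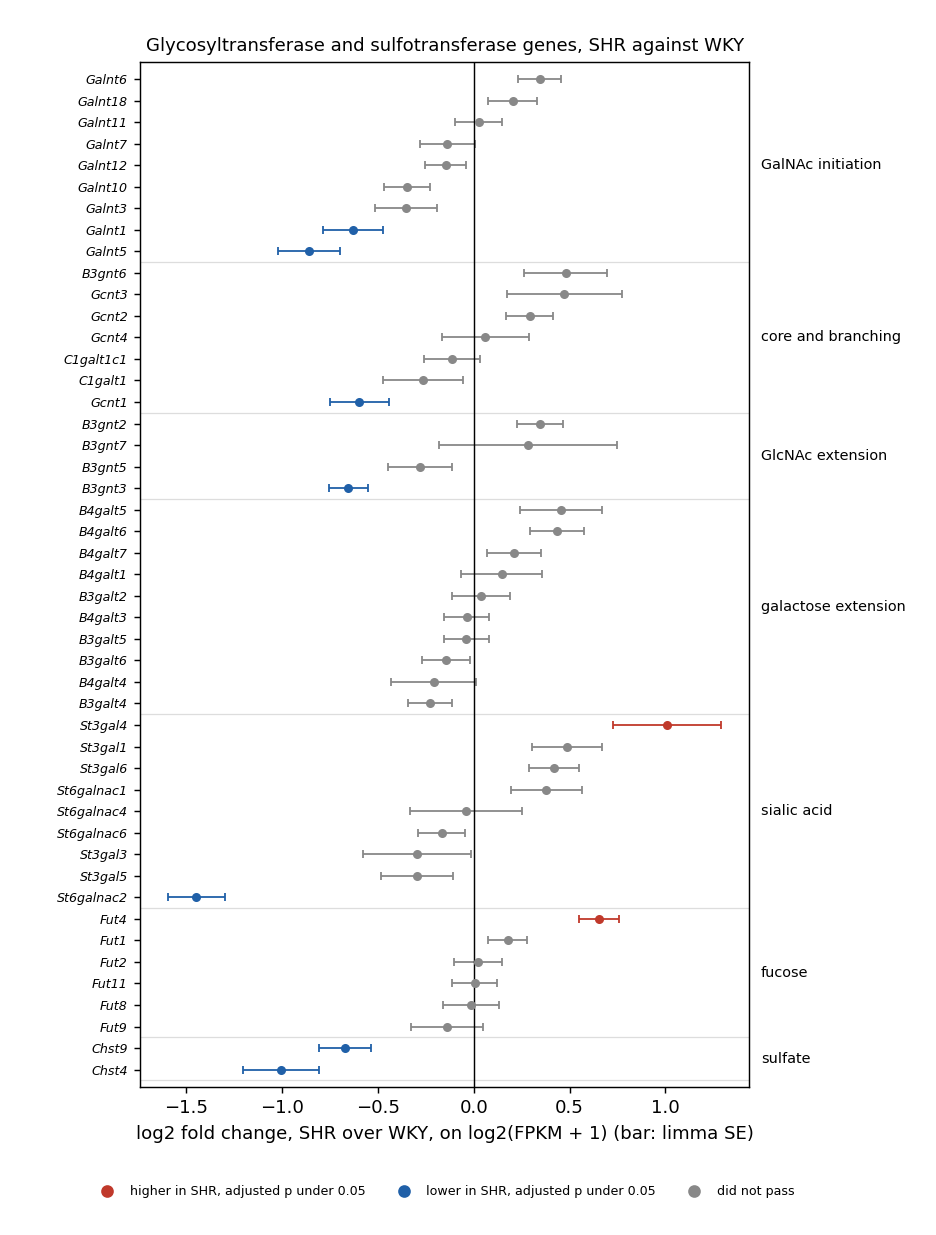
Log2 fold change of SHR over WKY on the log2(FPKM + 1) scale for the 47 genes (x axis, points, with limma's SE as bars), grouped by the step the enzyme serves and ordered within each group (y axis). St6galnac2 lies lowest at -1.45 and St3gal4 highest at 1.01, and most genes lie near 0.

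Polypeptide GalNAc transferases decide which serines and threonines carry O-glycans, and 9 of them were measured. Of these, 2 fell, 0 rose and 7 did not pass (limma; 4 lower and 1 higher at an unadjusted p under 0.05, and 2 lower and 1 higher by the authors' q-values). Galnt5 (ENSRNOG00000004645) was at 7.33, 10.74, 8.28 and 13.25 FPKM in SHR replicates 1 to 4, against 16.6, 20.03, 19.89 and 17.07 FPKM in WKY replicates 1 to 4. Every SHR library lay below every WKY library, and Galnt5 fell by 0.86 ± 0.16 on the log2 scale (limma SE, adjusted p = 0.0052). In bulk samples fewer cells of a type and less RNA per cell cannot be told apart, for this gene or any below.

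Galnt1 (ENSRNOG00000016207), a broadly expressed enzyme of this step, was at 38.44, 47.96, 48.43 and 69.95 FPKM in SHR, against 83.94, 82.58, 71.27 and 74.93 FPKM in WKY. The strains did not overlap, but SHR replicate 4 came close to the lowest WKY library. Galnt1 fell by 0.63 ± 0.16 on the log2 scale (adjusted p = 0.0232). That call was lost in 5 of 8 fits that left out 1 library, with an adjusted p of up to 0.0636.

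The most abundant member of all was Galnt6, an initiating enzyme made by colon epithelium. Its values were 208.99, 282.59, 256.81 and 256.81 FPKM in SHR, against 193.83, 195.79, 198.37 and 199.06 FPKM in WKY. The WKY libraries were nearly equal and all lay below the SHR libraries, yet the log2 fold change of 0.34 ± 0.11 did not pass (limma adjusted p = 0.0688). The adjusted p went under 0.05 with quantile normalization, with median centring, without SHR replicate 1 (0.0252), and in the authors' deposited table (q = 0.0355). Galnt6 made up 41.6 ± 2.70% of the summed FPKM of the 9 initiating enzymes in SHR and 32.9 ± 0.46% in WKY (SD, n = 4 each), while Galnt1 made up 8.40 ± 1.46% in SHR and 13.1 ± 1.08% in WKY.

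Galnt10, an enzyme that prefers peptides already carrying GalNAc, was at 22.84, 32.33, 29.09 and 30.11 FPKM in SHR, against 33.79, 35.25, 39.25 and 37.61 FPKM in WKY. These values did not overlap either, but the gene did not pass (log2 fold change -0.35 ± 0.12, limma adjusted p = 0.0855) and passed under none of the 16 alternatives. Galnt18, Galnt12 and Galnt7 averaged between 69.7 and 96.5 FPKM in both strains, with overlapping values. Galnt3 averaged 17.4 ± 4.11 FPKM in SHR and 22.2 ± 2.83 FPKM in WKY (SD, n = 4 each), and Galnt11 4.92 ± 0.675 and 4.80 ± 0.377 FPKM in SHR and WKY. None of these 5 passed, with limma adjusted p between 0.176 and 0.914.

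The next step makes the core of the chain, and of its 7 genes 1 fell, 0 rose and 6 did not pass (2 higher and 1 lower at an unadjusted p under 0.05, and 0 higher and 1 lower by the authors' q-values). Gcnt1 (ENSRNOG00000050534), which adds the branch of core 2, was low in both strains, at 0.65, 1.22, 1.06 and 1.16 FPKM in SHR, against 1.41, 2.11, 2.83 and 1.98 FPKM in WKY. All SHR values were below all WKY values, and the log2 fold change was -0.60 ± 0.15 (limma adjusted p = 0.0272). With levels this close to the pseudocount of 1 the fold change is understated, and the ratio of the means was 0.491. The call was lost with quantile normalization and in 4 of 8 fits without a library.

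Gcnt3, the enzyme of mucosal core 2 and core 4 branches, was the most abundant gene of this step. It was at 60.58, 91.85, 90.56 and 122.82 FPKM in SHR, against 46.9, 114.36, 48.87 and 62.38 FPKM in WKY. WKY replicate 2 stood far above the other WKY libraries and above 3 of the SHR libraries, and Gcnt3 did not pass (log2 fold change 0.47 ± 0.30, limma adjusted p = 0.343). Without WKY replicate 2 the adjusted p was 0.0463.

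Core 1 and core 3, the alternative first extensions of GalNAc, are made by C1galt1 and B3gnt6. C1galt1 averaged 53.4 ± 15.0 FPKM in SHR and 63.5 ± 14.3 FPKM in WKY, and C1galt1c1, the chaperone that the core 1 enzyme needs to fold, 48.4 ± 5.51 FPKM in SHR and 53.0 ± 11.0 FPKM in WKY. B3gnt6 was at 11.54, 12.17, 16.12 and 17.23 FPKM in SHR, against 6.23, 9.38, 15.19 and 10.25 FPKM in WKY. WKY replicate 3 lay inside the SHR range, and neither B3gnt6 (limma adjusted p = 0.181) nor C1galt1 (0.435) nor C1galt1c1 (0.659) passed. Gcnt2, which makes I branches, and Gcnt4, another core 2 enzyme, overlapped between the strains, with limma adjusted p of 0.143 and 0.889.

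Among the enzymes that lengthen chains with N-acetylglucosamine, the order of the 2 leading genes was opposite in the strains. B3gnt3 (ENSRNOG00000018764), which extends core 1 chains, was at 11.23, 11.84, 11.54 and 11.1 FPKM in SHR, against 16.73, 18.87, 18.92 and 19.86 FPKM in WKY. The SHR libraries differed little from each other and were far below WKY, and B3gnt3 fell by 0.65 ± 0.10 on the log2 scale (limma adjusted p = 0.00176). It passed under all 16 alternatives. B3gnt2, the main enzyme of long lactosamine chains, was at 16.59, 17.08, 20.15 and 17.48 FPKM in SHR, against 11.94, 14.72, 15.83 and 12.87 FPKM in WKY. These values did not overlap, but the log2 fold change of 0.35 ± 0.12 did not pass (limma adjusted p = 0.0819), while the authors' deposited table gives q = 0.0479.

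The level of B3gnt2 was 1.44 to 1.75 times that of B3gnt3 in the SHR libraries and 0.648 to 0.837 times that of B3gnt3 in the WKY libraries, so B3gnt2 was above B3gnt3 in 4 of 4 SHR and 0 of 4 WKY libraries. This pair was chosen after its values were seen, so the ratio is a description. Among all 4 genes of the group 1 fell, 0 rose and 3 did not pass (1 higher and 1 lower at an unadjusted p under 0.05 and by the authors' q-values). B3gnt5, which starts a series of glycolipids, averaged 8.32 ± 1.84 FPKM in SHR and 10.3 ± 2.26 FPKM in WKY and did not pass. B3gnt7, which lengthens sulfated chains, ranged from 0.92 to 3.4 FPKM in SHR and from 0.48 to 5.26 FPKM in WKY.

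**Figure D2:**
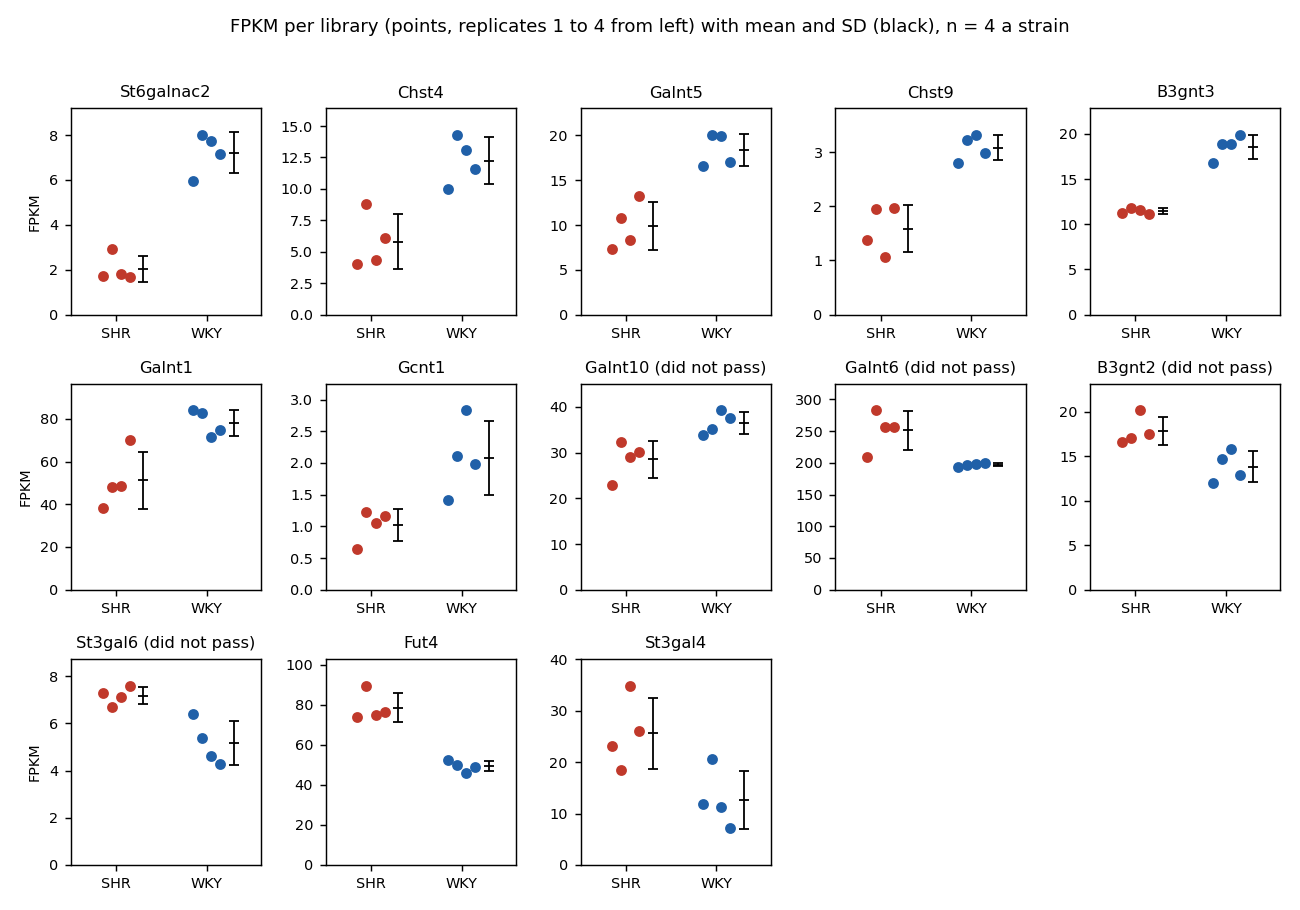
FPKM (y axes, each from 0) in each library for the 9 genes that passed and the 4 others whose strains did not overlap, with SHR left of WKY, points for replicates 1 to 4, and mean ± SD in black. B3gnt3 shows 11.1 to 11.84 FPKM in SHR and 16.73 to 19.86 FPKM in WKY, and only St3gal4 of the 13 has overlapping values.

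The galactosyltransferases that extend chains gave no call, with 0 of 10 genes past the limma threshold (1 higher and 0 lower at an unadjusted p under 0.05, and 1 higher and 0 lower by the authors' q-values). B3galt5, which makes the type 1 chains common in colon, was the second most abundant member, at 113.52, 142.21, 131.9 and 150.1 FPKM in SHR, against 133.24, 155.48, 135.02 and 127.54 FPKM in WKY. The strains overlapped throughout, with a log2 fold change of -0.04 ± 0.12 (limma adjusted p = 0.859) that turned positive with quantile normalization and median centring. The 1 gene called higher by the authors (q = 0.0236) was B4galt6, an enzyme of lactosylceramide, at 11.45, 14.0, 17.5 and 17.83 FPKM in SHR, against 11.21, 9.94, 11.52 and 10.75 FPKM in WKY. SHR replicate 1 lay among the WKY values, and in the limma fit the log2 fold change of 0.43 ± 0.14 had an adjusted p of 0.0684. The other 8 genes of this step had log2 fold changes between -0.23 and 0.45, and among them B4galt7 and B3galt6 act on the linker of proteoglycans, not on mucins.

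Among the 47 members the largest fall and the largest rise were both of sialyltransferases. Of 9 genes 1 fell, 1 rose and 7 did not pass (3 higher and 1 lower at an unadjusted p under 0.05, and 2 higher and 1 lower by the authors' q-values). St6galnac2 (ENSRNOG00000012083), which sialylates the GalNAc at the root of O-glycans, was at 1.72, 2.91, 1.82 and 1.69 FPKM in SHR, against 5.96, 7.99, 7.74 and 7.16 FPKM in WKY. The strains lay wide apart, the mean ratio was 0.282, and the log2 fold change was -1.45 ± 0.15 (limma adjusted p = 4.78e-05). It passed under all 16 alternatives.

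St6galnac1, which acts on the same GalNAc and makes the sialyl-Tn structure, was at 39.59, 42.94, 44.33 and 47.36 FPKM in SHR, against 22.61, 31.9, 49.59 and 33.9 FPKM in WKY. WKY replicate 3 was above all SHR libraries and the other WKY libraries below them, and St6galnac1 did not pass (log2 fold change 0.38 ± 0.19, limma adjusted p = 0.211). It was thus the more abundant of this pair in both strains. St6galnac6, which finishes disialylated chains and gangliosides, averaged 84.5 ± 6.61 FPKM in SHR and 95.6 ± 14.4 FPKM in WKY and did not pass (limma adjusted p = 0.395).

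St3gal4 (ENSRNOG00000009850), which caps lactosamine chains and takes part in sialyl Lewis x synthesis, was at 23.08, 18.38, 34.91 and 25.97 FPKM in SHR, against 11.8, 20.61, 11.18 and 7.18 FPKM in WKY. WKY replicate 2 exceeded SHR replicate 2, so the strains overlapped. St3gal4 rose by 1.01 ± 0.28 on the log2 scale, at the edge of the threshold (limma adjusted p = 0.0493), and the call was lost under 8 of 16 alternatives, 6 of them leaving out a library (adjusted p up to 0.123). In the authors' deposited table its q-value is 0.000687.

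St3gal6, which acts on similar chains, was at 7.29, 6.71, 7.12 and 7.61 FPKM in SHR, against 6.4, 5.4, 4.61 and 4.27 FPKM in WKY. The strains did not overlap, but the log2 fold change of 0.42 ± 0.13 did not pass (limma adjusted p = 0.0557). It passed with quantile normalization (adjusted p = 0.0277), with median centring (0.0314), without WKY replicate 1 (0.0374) and by the authors' deposited table (q = 0.0390). St3gal1, which caps core 1 and is the most abundant sialyltransferase gene here, was at 89.22, 107.8, 120.79 and 108.21 FPKM in SHR, against 54.42, 68.19, 109.06 and 79.37 FPKM in WKY. WKY replicate 3 lay inside the SHR range, and St3gal1 did not pass (log2 fold change 0.49 ± 0.18, limma adjusted p = 0.11), although without that library the adjusted p was 0.0148. St3gal3, St3gal5 (the GM3 synthase) and St6galnac4 averaged between 1.58 and 8.89 FPKM and overlapped between the strains.

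Of 6 fucosyltransferase genes 1 rose, 0 fell and 5 did not pass (1 higher and 0 lower at an unadjusted p under 0.05 and by the authors' q-values). Fut4 (ENSRNOG00000009157), which adds fucose to inner lactosamine units and makes Lewis x, was at 73.6, 89.54, 74.66 and 76.47 FPKM in SHR, against 52.57, 49.97, 46.04 and 49.04 FPKM in WKY. The lowest SHR library was well above the highest WKY library, and Fut4 rose by 0.66 ± 0.10 on the log2 scale (limma adjusted p = 0.00198), a call kept under all 16 alternatives.

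Fut2, whose enzyme makes the H antigen of secretions, was at 62.96, 83.22, 73.54 and 85.48 FPKM in SHR, against 71.81, 85.75, 75.49 and 66.31 FPKM in WKY. The strains overlapped throughout (log2 fold change 0.02 ± 0.13, limma adjusted p = 0.924), and the sign turned negative without SHR replicate 2, SHR replicate 4 or WKY replicate 4. Fut4 was above Fut2 in 3 of 4 SHR and 0 of 4 WKY libraries, a pair also chosen after its values were seen. Fut1, which makes the same H structure, averaged 39.6 ± 1.04 FPKM in SHR and 35.1 ± 3.02 FPKM in WKY. Fut9, another Lewis x enzyme, averaged 19.6 ± 5.42 FPKM in SHR and 21.4 ± 4.23 FPKM in WKY. Fut8, which fucosylates the core of N-glycans, averaged 24.4 ± 3.79 FPKM in SHR and 24.7 ± 4.35 FPKM in WKY, and Fut11 about 2 FPKM in both strains.

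Both carbohydrate sulfotransferase genes that reached the level limit fell. Chst4 (ENSRNOG00000016953), which sulfates N-acetylglucosamine, was at 4.0, 8.79, 4.32 and 6.07 FPKM in SHR, against 9.98, 14.27, 13.11 and 11.62 FPKM in WKY. SHR replicate 2 was the closest to WKY and still below it, and Chst4 fell by 1.00 ± 0.20 on the log2 scale (limma adjusted p = 0.00733). Chst9 (ENSRNOG00000015867), which sulfates N-acetylgalactosamine, was at 1.37, 1.94, 1.07 and 1.96 FPKM in SHR, against 2.8, 3.23, 3.31 and 2.98 FPKM in WKY. Its values did not overlap, and the log2 fold change was -0.67 ± 0.14 (limma adjusted p = 0.00852). Both passed under all 16 alternatives.

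In all, 8 of 47 members had every SHR library below every WKY library (17.0%, beside 10.8% of all tested genes) and 4 had every SHR library above (8.51%, beside 5.28%). The 4 genes that matched by name but missed the level limit were B3gnt9, B3gntl1, St3gal2 and St6gal1, which were not tested. St3gal2 was listed at 0.18 to 0.29 FPKM in SHR and 0.4 to 0.96 FPKM in WKY, B3gnt9 at 0.85 to 2.39 FPKM in SHR and 0.47 to 0.87 FPKM in WKY. Just outside the limit lay B3gntl1 and B3gnt9, each at 1 FPKM or more in 2 of 8 libraries. Just inside it lay B3gnt7, in 6 of 8 libraries, and Gcnt1, in 7 of 8.

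Low and high values often came from the same libraries. The lowest value of a strain came from SHR replicate 1 for 25 of the 47 members (53.2%, beside 42.5% of all tested genes) and from WKY replicate 1 for 26 of 47 (55.3%, beside 19.8% of all tested genes). WKY replicate 3 gave the highest WKY value for 18 members (38.3%, beside 23.3%), among them St3gal1, St6galnac1, B3gnt6, B4galt5 and B3gnt7. The summed FPKM of the 47 genes was 1428.73 to 1796.87 in SHR and 1465.07 to 1677 in WKY, so the totals overlapped. The median coefficient of variation within a strain was 19.8% in SHR and 15.0% in WKY for the members, beside 15.0% and 12.8% for all tested genes.

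The genes that supply these enzymes with sugar and sulfate donors were examined as a list of 33. The list was made with earlier results of these data known, and 31 of its genes were tested. Of these, 24 gave no call, 4 fell and 3 rose, which is 12.9% lower and 9.68% higher, beside 7.48% lower and 3.40% higher among all tested genes. At an unadjusted p under 0.05 there were 11 lower and 4 higher, beside 2040 lower and 997 higher of all 11069 tested genes. The authors' q-values called 4 lower and 4 higher. Every SHR library lay below every WKY library for 12 of the 31 genes (38.7%, beside 10.8% of all tested genes). For 4 of them every SHR library lay above every WKY library (12.9%, beside 5.28%). The list's median log2 fold change was -0.17, beside -0.07 over all tested genes. Slc35b4, a nucleotide sugar transporter of the secretory pathway, was at 3.53, 4.15, 3.58 and 3.56 FPKM in SHR, against 5.6, 5.73, 5.32 and 5.59 FPKM in WKY. The strains did not overlap, and Slc35b4 fell by 0.48 ± 0.11 on the log2 scale (limma adjusted p = 0.0132), a call kept under all 16 alternatives.

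The other genes of this list that fell were Galk1 (galactokinase), Fpgt (GDP-fucose salvage) and Nans (sialic acid synthase), with log2 fold changes between -0.60 and -0.43. For each of them the call was lost in 6 of 8 fits without 1 library. Over all 16 alternatives the call was lost under 10 for Galk1, 9 for Nans and 6 for Fpgt. Those of Galk1 and Nans included quantile normalization and median centring. Galt, which follows galactokinase in galactose breakdown, averaged 15.7 ± 1.59 FPKM in SHR and 10.1 ± 0.954 FPKM in WKY and rose by 0.58 ± 0.12 on the log2 scale (limma adjusted p = 0.00752). The sulfate transporter Slc26a2 was at 73.67, 125.56, 109.01 and 129.24 FPKM in SHR, against 60.13, 69.87, 63.8 and 57.66 FPKM in WKY. It rose by 0.76 ± 0.16 on the log2 scale (limma adjusted p = 0.0106), while Papss2, which makes the activated sulfate that sulfotransferases use, averaged 43.3 ± 4.01 FPKM in SHR and 32.0 ± 2.50 FPKM in WKY and rose by 0.42 ± 0.11 (adjusted p = 0.0261). Leaving out 1 library ended the call of Papss2 in 3 of 8 fits. Papss1, which makes the same activated sulfate, averaged 94.1 ± 6.44 FPKM in SHR and 112.2 ± 13.8 FPKM in WKY. Every SHR library of Papss1 lay below every WKY library, but its log2 fold change of -0.25 did not pass (limma adjusted p = 0.184). Slc35b2 and Slc35b3, which carry activated sulfate into the Golgi, did not pass either, with log2 fold changes of 0.05 and 0.06.

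Of 19 other tested glycan enzymes 1 fell, 0 rose and 18 did not pass. That is 5.26% lower and 0% higher, beside 7.48% lower and 3.40% higher among all tested genes. At an unadjusted limma p under 0.05 there were 5 lower and 1 higher, and by the authors' q-values 1 lower and 0 higher. The median log2 fold change of these enzymes was -0.11, beside -0.07 over all tested genes. The gene that fell was Mgat4b, which branches N-glycans, at 14.5 ± 1.73 FPKM in SHR and 20.3 ± 2.06 FPKM in WKY (log2 fold change -0.46 ± 0.12, limma adjusted p = 0.0276). This call was lost under 7 of 16 alternatives, with the replicate block (adjusted p = 0.0563), quantile normalization (0.0556), median centring (0.0516) and in 4 of 8 fits without 1 library (SHR replicates 3 and 4, WKY replicates 1 and 4, up to 0.0950). Of 13 mucins listed as possible acceptors of O-glycans 2 were analysed here. The surface mucin Muc13 was at 929.36, 826.82, 1137.36 and 970.33 FPKM in SHR, against 621.42, 760.9, 730.44 and 611.23 FPKM in WKY. It was higher in every SHR library than in any WKY library and rose by 0.50 ± 0.13 on the log2 scale (limma adjusted p = 0.0275), and leaving out 1 library ended this call in 3 of 8 fits. Muc1, also a surface mucin, averaged 3.40 ± 1.23 FPKM in SHR and 6.71 ± 2.64 FPKM in WKY and did not pass (limma adjusted p = 0.0741). It was called lower without SHR replicate 1 (adjusted p = 0.0403), without WKY replicate 1 (0.0232) and by the authors' deposited table (q = 0.0217).

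**Figure D3:**
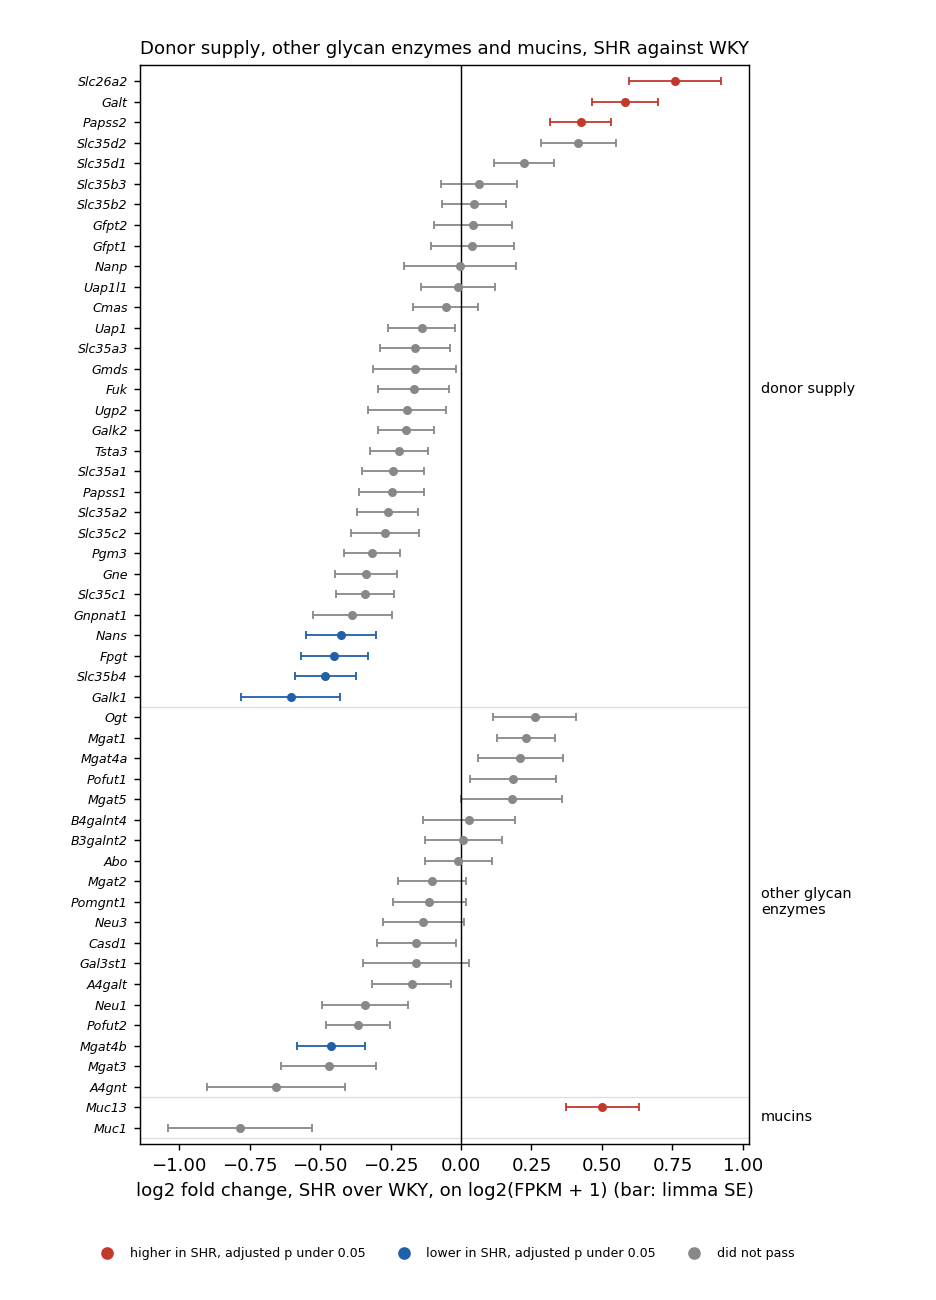
Log2 fold change of SHR over WKY on the log2(FPKM + 1) scale (x axis, points, with limma's SE as bars) for 52 genes of donor supply, other glycan enzymes and mucins (y axis). Galk1 lies lowest of the donor supply genes shown at -0.60 and Slc26a2 highest at 0.76.

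Markers of the cells in the preparation moved with strain beside these genes. In SHR 8 of the 15 goblet cell markers tested were lower (53.3%) and 0 higher (limma). Among all tested genes 7.48% were called lower and 3.40% higher. For the goblet cell markers the other values were as follows. Their median log2 fold change was -0.59, and their summed level was 2765 to 3578 FPKM in SHR libraries and 4360 to 5827 FPKM in WKY libraries. Of 12 surface colonocyte markers, which hold the enterocyte enzymes and Krt20, 1 fell (Alpi, intestinal alkaline phosphatase) and 0 rose, but 10 had a log2 fold change above 0 and the median was 0.30, with 4 higher and 2 lower both at an unadjusted p under 0.05 and by the authors' q-values. Their summed level was 26256 to 31211 FPKM in SHR and 23400 to 30171 FPKM in WKY, most of it from Car1, a carbonic anhydrase, which averaged 20471 ± 1956 FPKM in SHR and 19971 ± 3741 FPKM in WKY. Of 10 tested markers of dividing crypt cells 6 fell (60.0%) and 0 rose. Of 8 tested markers of T and natural killer cells 5 fell (62.5%) and 0 rose, with a summed level of 18.4 to 39.7 FPKM in SHR and 49.2 to 210.9 FPKM in WKY. All 8 tested enteroendocrine markers had a log2 fold change below 0, with a median of -0.77, and 2 of them, Cck and Neurod1, fell (25.0%). By the authors' q-values 6 were lower and 0 higher of the 9 in the deposited table, which include Scg3, not tested here. Neurod1, Alpi and the T and natural killer cell marker Nkg7 each reached 1 FPKM in 4 WKY libraries and 0 SHR libraries. They thus entered the test only through WKY. Of 3 tested markers of macrophages and mast cells 1 fell, the mast cell protease Mcpt2. Cd74, the only marker tested of those listed for B and plasma cells, also fell. Of 3 tested markers of fibroblasts and muscle 1 rose, Pdgfrb, at 1.81 to 2.36 FPKM in SHR and 0.66 to 1.11 FPKM in WKY. Pdgfrb was thus low in both strains. It reached 1 FPKM in 4 SHR libraries and 1 WKY library, so its entry to the test rested on SHR. The other markers of that list did not pass, Vim with a log2 fold change of -1.20 (limma adjusted p = 0.102) and Myh11 with 0.05. Of 6 tested tuft cell markers 0 were called (limma; 1 lower and 0 higher at an unadjusted p under 0.05, and 0 by the authors' q-values). The falls of the 7 members had log2 fold changes between -1.45 and -0.60. The part of any of these cell types in them was not tested.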

How the data were processed

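Messenger RNA of proximal colonic epithelium was sequenced as directional paired-end libraries, per the labels' protocols. The submitters' processing notes name FastQC, Trimmomatic and STAR, with no role. The labels name the black rat, Rattus rattus, whereas the gene identifiers have the Ensembl prefix used for the brown rat. Neither the genome build nor the program that counted reads, nor the authors' test, is given in the sources used here. The deposited values per library were taken as FPKM, a unit that no header or label names: value times a length per gene (the authors' mean CPM over these values) summed to 982968 to 1017515 per library, and plain sums to 882295 to 1066833. The size of that total follows from how the length was made, and only its evenness bears on the unit. The authors' q-value, p-value, log2 fold change (SHR over WKY) and mean CPM columns are named per the file headers. Reads per library are unknown, so no counting interval is given, and levels of different genes rest on the lengths the authors used. Whether counting used strand is not given either.

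The 11069 genes that reached 1 FPKM in 4 or more libraries were tested on log2(FPKM + 1), which understates changes of low genes, with limma 3.58.1 in R 4.3.3 (strain as the only term, trend and robust settings, two-sided, Benjamini-Hochberg over all tested genes, threshold 0.05). The test was also run on simulated data with noise drawn independently for each gene and library. That cannot show how it behaves where many genes of a library deviate together. The alternatives were pseudocounts of 0.1 and 5, a block on the replicate number, quantile normalization, centring on the median gene, no filter, no trend or robust settings, the authors' q-values, and leaving out each library. Named are members that passed, members whose strains did not overlap, the most abundant member of each step, and genes of the supply, enzyme and mucin lists that passed. B4galt6 and other members were named beyond that rule after their values were seen. Members and lists were chosen with earlier results of these data known, and some genes of the families and lists are not reported here. Figures were drawn with matplotlib 3.10.9.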

Additional observations from a re-analysis of the deposited data

Results flagged for a closer look

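With 94 groups of 4 libraries examined (47 genes in 2 strains), 2 held a library far from the others of its strain, where chance flags about 1 group in 20. B3gnt7 was at 5.26 FPKM in WKY replicate 3, while the other WKY libraries lay between 0.48 and 1.16 FPKM. St6galnac2 was at 2.91 FPKM in SHR replicate 2, while the other SHR libraries lay between 1.69 and 1.82 FPKM, and all of them were below the WKY libraries.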

How the results depend on the processing

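Of the 9 members that passed, 6 passed with the same sign under all 16 alternatives (St6galnac2, Chst4, Chst9, Galnt5, B3gnt3 and Fut4). The count of higher members was 2, and it was 1 with a pseudocount of 0.1, 6 with quantile normalization, 5 with median centring, 6 by the authors' q-values, and 1 to 5 without 1 library. It was 1 without SHR replicate 3, SHR replicate 4 or WKY replicate 4, and 5 without WKY replicate 3. The count of lower members was 7, between 5 and 7 without 1 library and 6 or 7 otherwise. The members' median log2 fold change, -0.037 in the fit as reported, lay between -0.095 and 0.0048 without 1 library. It was 0.038 with quantile normalization and 0.010 with median centring, beside 0.0045 and -0.026 over all tested genes. Of the other pathway genes 5 were lower and 4 higher, against 2 lower with quantile normalization or median centring and 3 lower with no trend or robust settings. Without 1 library 1 to 6 were lower and 2 to 4 higher. The lower count was 1 without SHR replicate 3 or WKY replicate 4, 2 without WKY replicate 2, and 3 without SHR replicates 1, 2 or 4, and the higher count was 2 without WKY replicate 1 or WKY replicate 4. The cause was not tested. The log2 fold change of B3galt5, negative in the fit as reported, was 0.065 with quantile normalization, 0.0077 with median centring, 0.039 without SHR replicate 1 and 0.020 without WKY replicate 2, in a range of -0.095 to 0.039 over the fits without 1 library. That of Fut2, positive as reported, was -0.021 without SHR replicate 2, -0.034 without SHR replicate 4 and -0.032 without WKY replicate 4, in a range of -0.034 to 0.11.

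Whether same-numbered libraries of the strains shared more than a number is not given in the labels. Their deviations from the strain means correlated between -0.29 and 0.46, over 0.1 for 1 of 4 pairs, replicate 3. Of 4 SHR libraries 1 correlated best with its own number. These correlations do not settle whether the libraries were paired. With the replicate number as a block 3 members were higher and 7 lower, and 1 of the 3 had been higher without it. St3gal4 was not among the 3, while St3gal1 and B4galt5 were. Since depth is unknown, so is the counting error of low genes such as Gcnt1, Chst9 and St6galnac2.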
